A study of Mus musculus with 9 samples.

Results

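The MYC-MAX-MXD network was followed in newly made RNA of mouse CD8+ T cells, the lymphocytes that kill infected and tumour cells, as 10 genes taken by symbol: Myc, Max, Mxd1, Mxd3, Mxd4, Mxi1, Mnt, Mlx, Mlxip and Mga. These are 10 of the 37022 genes with a matched row in the deposited tables. Where a gene has several transcript rows, the row with most gene-body signal on average was taken. RNA was labelled in live cells for 30 minutes with 0.2 mM 5-ethynyl uridine, which enters RNA in place of uridine and carries a handle for capture, and the labelled RNA was captured and sequenced. The 9 libraries form 3 groups of 3: cells stimulated acutely, cells stimulated chronically, and cells stimulated chronically while MEK, the kinase upstream of ERK, was inhibited (chronic MEKi). The series set these groups side by side to examine transcription in T cell exhaustion, the loss of function under persistent stimulation. The genotype, strain, age, manner and length of stimulation, inhibitor and its dose are not given in the sources used here, nor whether the libraries of a group came from separate animals or cultures. P-values therefore measure the spread between these libraries, which may be technical.

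MYC is a transcription factor of the basic helix-loop-helix leucine zipper class that binds DNA as a dimer with MAX, chiefly at the E-box CACGTG, and raises transcription of genes for growth, ribosome making and metabolism. MXD1, MXD3, MXD4, MXI1 and MNT compete for MAX and the same sites and recruit the SIN3-HDAC corepressor, while MGA joins MAX to a variant Polycomb complex, PRC1.6. MLX is a MAX-like partner of MLXIP (MondoA), a sensor of glucose-derived metabolites, and of some of the repressors. In T cells, antigen receptor signals induce Myc, and the ERK pathway is known to act on both the transcription of Myc and the stability of its protein.

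Because these proteins bind the E-box, RefSeq promoter windows of 300 bases (250 before and 50 after a gene's start, build GRCm38.p6) were searched for CACGTG, which reads the same on both strands. A window was found for 9 of the 10 genes, all but Myc. The E-box was present in 4 of these 9 genes, Max, Mxd4, Mnt and Mlx. The 9 genes have 11 windows between them, since Mxi1 has several. Of all 32851 windows of that length 7.15% held the E-box, which is a share of windows and not of genes. The windows of Mxd1, Mxd3, Mxi1, Mlxip and Mga held no such letters. The variant CACGCG, searched on both strands, was found in Mga alone among the members and in 9.27% of all windows. The sequences around each E-box are shown because they carry the network's own recognition sequence, with CACGTG in capitals, and the bases before the Mxd1 start because Mxd1 had the largest difference of the 10 genes.
Max, chr12:76962246-76962311, minus strand: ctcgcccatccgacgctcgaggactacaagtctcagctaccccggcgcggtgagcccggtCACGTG
Mxd4, chr5:34187900-34187960, minus strand: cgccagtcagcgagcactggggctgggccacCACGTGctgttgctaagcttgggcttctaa
Mnt, chr11:74830741-74830830, plus strand: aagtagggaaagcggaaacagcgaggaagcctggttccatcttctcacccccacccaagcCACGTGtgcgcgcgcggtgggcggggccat
Mlx, chr11:101087190-101087279, plus strand: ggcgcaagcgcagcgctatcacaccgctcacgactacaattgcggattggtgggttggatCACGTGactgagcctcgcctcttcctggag
Mxd1, chr6:86669160-86669409, minus strand: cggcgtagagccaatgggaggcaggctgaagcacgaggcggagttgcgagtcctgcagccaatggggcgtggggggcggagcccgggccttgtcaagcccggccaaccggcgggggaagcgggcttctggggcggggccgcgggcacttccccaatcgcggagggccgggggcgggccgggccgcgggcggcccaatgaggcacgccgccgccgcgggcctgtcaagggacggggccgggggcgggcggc
The E-box began 3 bases before the RefSeq start in Max, 40 in Mlx, 123 in Mnt and 219 in Mxd4. A match is a description of the sequence and not evidence of binding.

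The deposited signal summed to between 48601757 and 52216192 per library over gene bodies, and depth in reads is unknown, so no counting interval is given. Rows that resemble ribosomal RNA held 19.1% to 22.3% of the gene-body signal in the acute, 34.2% to 40.6% in the chronic and 29.0% to 36.1% in the chronic MEKi libraries. Libraries of a group correlated at 0.9591 to 0.9838 over 9 pairs, and libraries of different groups at 0.9102 to 0.9536 over 27 pairs. The CD3 and CD8 genes were all transcribed, but the sum of the 5 CD8 T cell markers was 11929 to 13104 in acute, 7345 to 8014 in chronic and 10319.7 to 12000.3 in chronic MEKi libraries. Cd8a itself ran from 3653 to 4340 in acute, 832 to 1171 in chronic and 2580 to 3064 in chronic MEKi libraries. By mean of these groups in that order, Cd3d held 1266, 1244 and 1397, and Cd3g 1500, 1592 and 1530. Cd3e held 3732, 2627 and 3434, and Cd8b1 1872, 1229 and 2041, so the 5 markers did not move together. The 4 B cell markers summed to 351 to 437 in acute, 90.2 to 166 in chronic and 85.4 to 227 in chronic MEKi libraries, most of it Cd79a. The 2 NK cell markers summed to 7.87 to 19.2 in acute, 19.1 to 34.9 in chronic and 32.2 to 54.2 in chronic MEKi libraries, most of it Klrb1c. The 4 myeloid markers summed to 161 to 225, 103 to 171 and 89.7 to 214 in the 3 groups, and the 2 erythroid markers to 0 to 24.97, 2.25 to 16.9 and 0 to 14.4. Lyz2, Ncr1 and Hba-a1 were each at 0 in several libraries. The 2 CD4 T cell markers summed to 1040.2 to 1367 in acute, 1054 to 1383 in chronic and 1729 to 2016 in chronic MEKi libraries, where the 2 genes moved in opposite ways. Cd4 averaged 442, 234 and 116 in the 3 groups and was called lower in each comparison (adjusted p = 0.0174, 0.0449 and 0.000119), while Zbtb7b averaged 789, 1002 and 1769 and was called higher in chronic MEKi libraries against chronic (adjusted p = 0.000484) and acute ones (7.41e-06) but not in chronic against acute libraries (0.0688). The part of these shifts in the values below was not tested, and fewer cells of a type and less labelled RNA per cell cannot be told apart. Dusp6, a phosphatase that the ERK pathway switches on, served as a check of MEK inhibition: it lay at 2315 to 2491 in chronic and 193 to 211 in chronic MEKi libraries (log2 fold change -3.52, SE 0.13, limma adjusted p = 5.23e-12).

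All 10 genes passed the filter on low gene-body signal (at least 50 in at least 3 libraries). In chronic against acute libraries, limma on log2(signal + 5), with p-values adjusted by Benjamini-Hochberg over all 15942 genes tested and a threshold of 0.05, called 5 of the 10: Mxd3 and Mnt higher, and Mxd1, Mxi1 and Max lower. Of all genes tested 33.9% were called, 18% higher and 15.9% lower. The groups did not overlap for 5 of the 10 genes, against 44.2% of all genes. In chronic MEKi against chronic libraries 6 were called, Mxd1 and Max higher and Mnt, Mlx, Myc and Mga lower, where 17.6% of all genes were called, 9.93% higher and 7.65% lower. There the groups did not overlap for 8 of the 10, against 32.2% of all genes. In chronic MEKi against acute libraries 5 were called, Mxd3 higher and Mxi1, Myc, Mga and Max lower, where 25.8% of all genes were called, 14.4% higher and 11.5% lower, and the groups did not overlap for 6 of the 10, against 42% of all genes. The median log2 fold change of the 10 genes in these comparisons, in the same order, was -0.12, 0.18 and -0.32, and that of all genes -0.016, 0.037 and 0.0033. Mxd4 and Mlxip were called in none of the 3. The 3 comparisons share libraries: a gene that is low in the chronic group is lower against acute and is met by a higher value under MEK inhibition through the same 3 libraries.

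The split of calls depended on the scale. With library totals in place of the trimmed mean, which lowers the median gene by 0.49 (log2) in chronic against acute libraries, 1096 genes were higher and 6846 lower, against 2875 and 2528. For chronic MEKi against chronic the split was 1769 and 741 with library totals, against 1583 and 1219, and for chronic MEKi against acute 955 and 4965, against 2291 and 1827. Among the 10 genes library totals gave 0 higher and 6 lower in chronic against acute, 2 higher and 2 lower in chronic MEKi against chronic, and 1 higher and 8 lower in chronic MEKi against acute. The falls of Mxd1, Mxi1 and Max in chronic against acute libraries were called under each of the 4 other ways of scaling tried. So were the rises of Mxd1 and Max and the falls of Myc and Mnt in chronic MEKi against chronic libraries. Of these 4 ways, 1 was chosen after the data were seen.

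**Figure D1:**
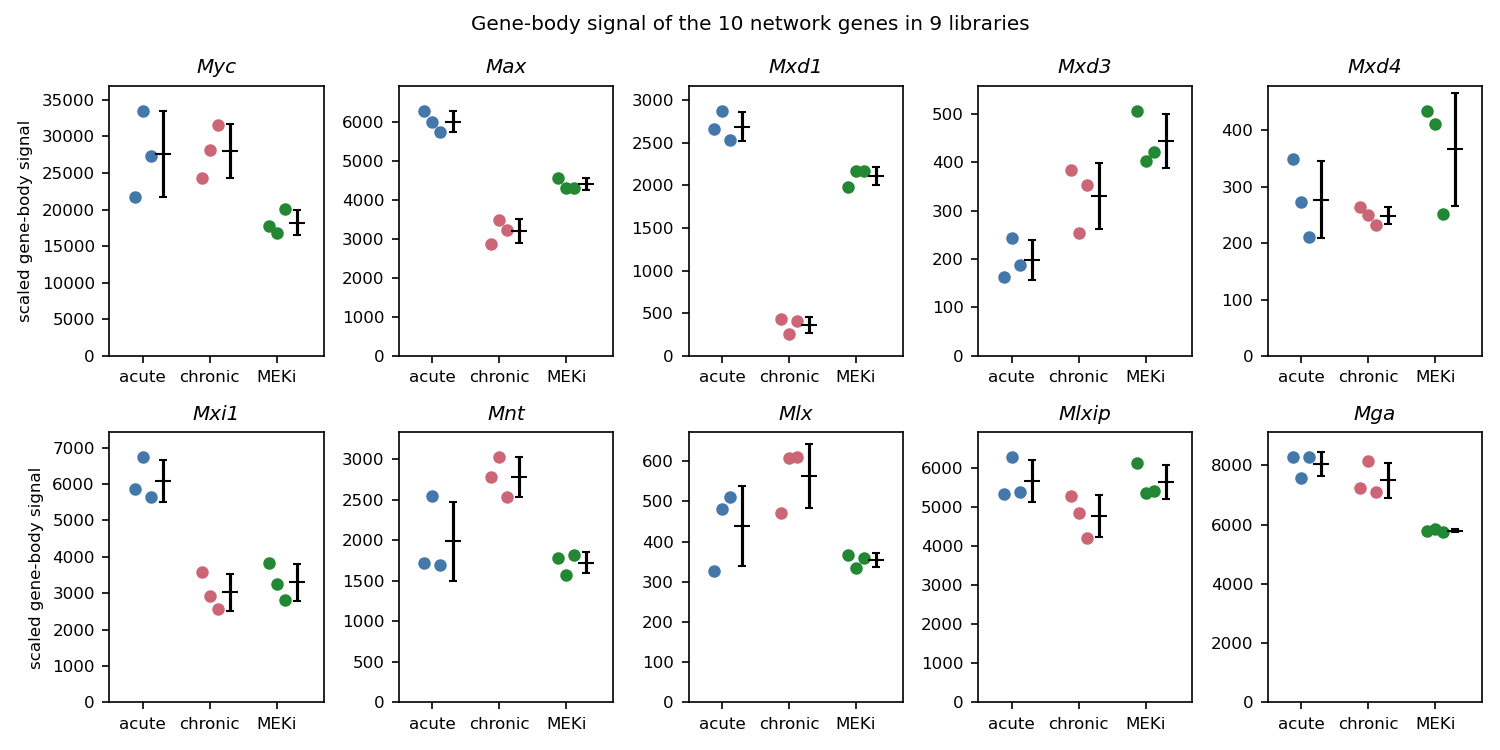
Scaled gene-body signal (vertical axes, from 0) of each of the 10 genes in the 9 libraries, by group; MEKi stands for chronic MEKi. Points are libraries, and black marks and bars are the mean and SD of 3 libraries. Mxd1 sits between 259 and 427 in the chronic libraries and at 1982 or more in all others.

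**Figure D2:**
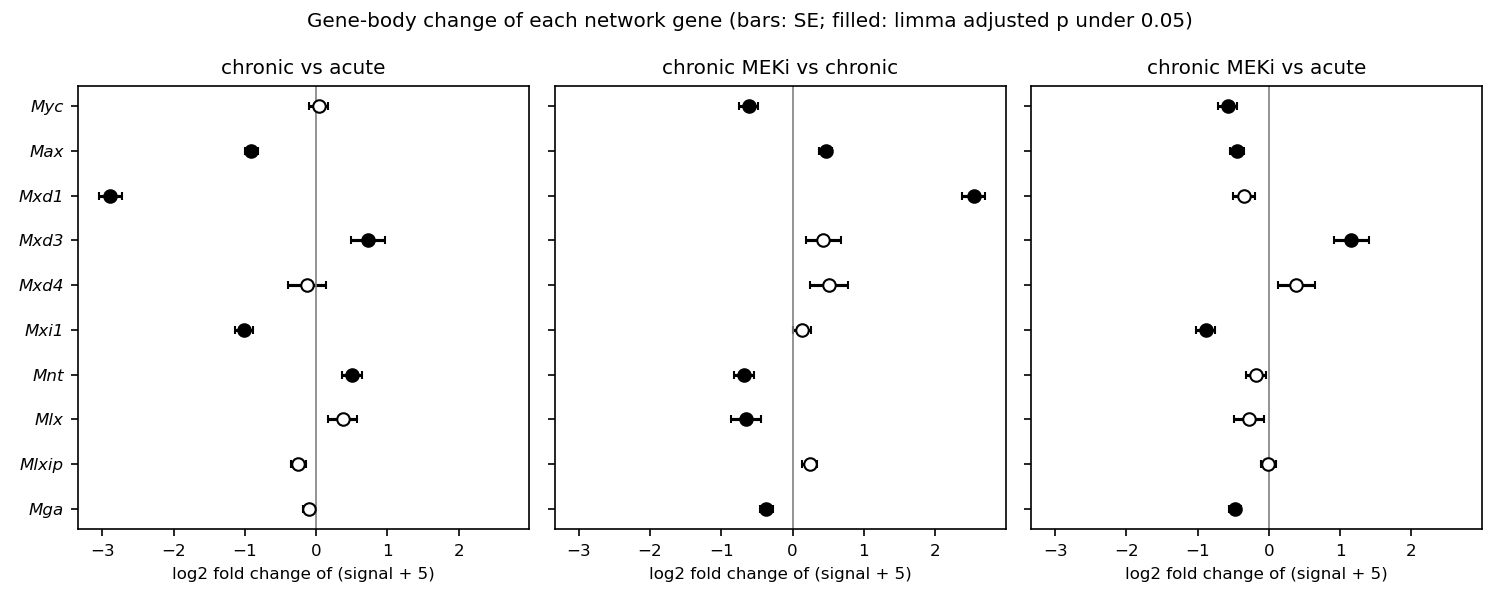
Log2 fold change of gene-body signal + 5 (horizontal axis) for each gene in the 3 comparisons, with bars for the SE and filled points for limma adjusted p under 0.05. The points of Mxd1 lie at -2.89 and 2.54 in the left and middle panels, farther from 0 than those of the other 9 genes.

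Myc (chromosome 15, 61985391 to 61990350, plus strand, GRCm38), the activator, was the member with the most signal. Its scaled gene-body signal was 21774, 33525 and 27373 in the acute, 24265, 28151 and 31547 in the chronic, and 17714, 16769 and 20099.6 in the chronic MEKi libraries. The chronic values lay inside the range of the acute ones, and all 3 chronic MEKi values were below every other library. Between chronic and acute libraries the log2 fold change was 0.036 (SE 0.14, adjusted p = 0.867), and Myc was called lower with library totals (-0.45, adjusted p = 0.00646) and on the deposited scale (-0.44, adjusted p = 0.00909). Under MEK inhibition Myc fell by 0.62 on the log2 scale against chronic libraries (SE 0.14, adjusted p = 0.00480), to 18194 ± 1717 from 27988 ± 3644 (SD, n = 3). It fell by 0.58 against acute libraries (SE 0.14, adjusted p = 0.00519). The first of these calls was lost without chronic replicate 3 (log2 fold change -0.53, adjusted p = 0.1204), and neither was kept without limma's intensity trend and robust moderation (adjusted p = 0.0609 and 0.0551).

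Signal close to the start of Myc was lower in chronic than in acute libraries. The pause region, the stretch near the transcription start, held 2200.2, 1869 and 2527 in the acute, 1259, 1511 and 1519 in the chronic, and 835, 1052 and 1204 in the chronic MEKi libraries. The 3 groups did not overlap, with acute libraries highest and chronic MEKi lowest. Pause-region signal of Myc fell in chronic against acute libraries (log2 fold change -0.61, SE 0.18, adjusted p = 0.0233) and in chronic MEKi against acute libraries (-1.09, SE 0.18, adjusted p = 0.000202). Against chronic libraries the chronic MEKi value was -0.48 (SE 0.18, adjusted p = 0.175). The chronic call was lost without acute replicate 1 (adjusted p = 0.0640), acute replicate 3 (0.0896), chronic replicate 1 (0.101) or chronic replicate 2 (0.0534), and when the rows of a gene were averaged (log2 fold change -0.34, adjusted p = 0.185). It was also lost with totals free of ribosomal RNA-like rows (-0.51, adjusted p = 0.0734) and without trend and robust moderation (-0.61, 0.197). The test of the pause region against the gene body of Myc itself, its pausing, was not called in chronic against acute libraries (-0.65, SE 0.28, adjusted p = 0.487).

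Myc has 5 annotated starts, and the group means fell in the same order at each. These values describe overlapping stretches of 1 gene and were not tested. At the most upstream start the pause-region signal averaged 2199 in acute, 1429.7 in chronic and 1030.5 in chronic MEKi libraries. At the start 231 bases downstream it averaged 6474, 4801 and 3057, the largest of the 5. At the start 2031 bases downstream it averaged 5705, 4464 and 2834. The log2 ratio of chronic to acute means was -0.62 at the most upstream start and -0.35 at the most downstream one, while the gene-body ratio stayed between 0.019 and 0.047 for all 5.

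**Figure D3:**
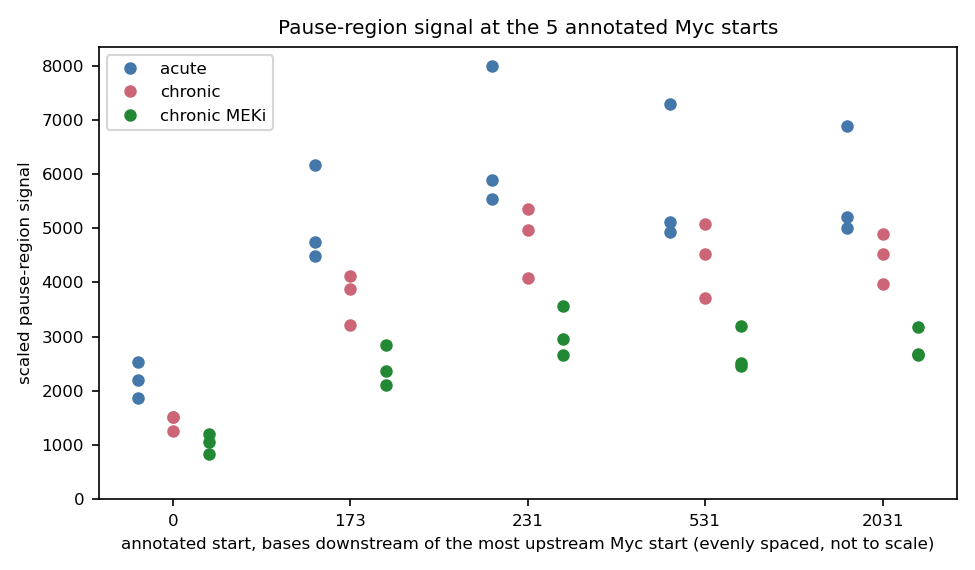
Scaled pause-region signal (vertical axis, from 0) at the 5 annotated Myc starts, which are placed at equal distances and named by their distance in bases from the most upstream one. Points are single libraries, coloured by group; at each start the acute libraries average above the chronic ones and the chronic above the chronic MEKi ones.

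Max (chromosome 12, 76937274 to 76962201, minus strand), the obligate partner of MYC and of its repressors, was lower in chronic libraries. Gene-body signal was 6307, 6002 and 5755 in the acute, 2887, 3490.4 and 3236 in the chronic, and 4585, 4327 and 4322 in the chronic MEKi libraries. The 3 groups were fully separate, with chronic MEKi between the other 2. Max fell by 0.91 on the log2 scale in chronic against acute libraries (SE 0.093, adjusted p = 4.15e-07). It rose by 0.46 in chronic MEKi against chronic libraries (SE 0.093, adjusted p = 0.00144) and stayed below acute libraries (-0.45, SE 0.093, adjusted p = 0.00141). Without the filter on low signal the rise was 0.39 (adjusted p = 0.0882). A gene of unknown type on the same strand, Gm47218, shares 1319 bases with Max, and its reads cannot be told apart from those of Max.

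Near its start Max moved the same way. The pause region held 697, 684 and 773 in the acute, 436, 365 and 494 in the chronic, and 572, 448 and 555 in the chronic MEKi libraries. Every chronic library was below every acute one, while chronic and chronic MEKi libraries overlapped. The fall in chronic against acute libraries was called (log2 fold change -0.74, SE 0.19, adjusted p = 0.0114), but not without chronic replicate 2 (-0.62, adjusted p = 0.0755), with totals free of ribosomal RNA-like rows (-0.63, 0.0562), without the filter (-0.75, 0.0609) or without trend and robust moderation (-0.74, 0.1097). The other comparisons gave 0.28 (adjusted p = 0.581) and -0.45 (adjusted p = 0.182). A Max row of the processed transcript class starts 7792 bases downstream and was picked out after its values were seen: its pause region held 150.1, 87.2 and 178 in the acute, 24.1, 23.4 and 32.2 in the chronic, and 41.0, 17.4 and 46.9 in the chronic MEKi libraries. Acute libraries were highest at this internal start, and this was not tested.

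Mxd1 (chromosome 6, 86647042 to 86669161, minus strand), a repressor known for its induction as cells leave the cycle and differentiate, had the largest differences of the 10 genes. Its gene-body signal was 2655, 2875 and 2533 in the acute, 427, 259 and 413 in the chronic, and 1982, 2167 and 2171 in the chronic MEKi libraries. All 3 chronic libraries lay far below the rest, and the chronic MEKi libraries lay just under the acute ones without overlap. The fall in chronic against acute libraries was 7.42-fold on the scale of signal + 5 (log2 fold change -2.89, SE 0.16, adjusted p = 1.42e-10). Under MEK inhibition it rose 5.82-fold against chronic libraries (log2 fold change 2.54, SE 0.16, adjusted p = 3.07e-09). Against acute libraries the chronic MEKi value was -0.35 (SE 0.16, adjusted p = 0.125), and this was called without chronic replicate 2 (-0.35, adjusted p = 0.0290) and with library totals (-0.73, adjusted p = 0.00181). Cd8a followed the same order of groups, as given above, and its part in the result was not tested. A gene of unknown type on the same strand, Gm44292, shares 2364 bases with Mxd1.

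Near its start Mxd1 showed the same order at lower signal. The pause region held 138, 196 and 126 in the acute, 41.8, 59.5 and 44.3 in the chronic, and 137, 168 and 119 in the chronic MEKi libraries. Chronic libraries were again below all others, and acute and chronic MEKi libraries overlapped. Pause-region signal of Mxd1 fell in chronic against acute libraries (log2 fold change -1.55, SE 0.33, adjusted p = 0.00181) and rose in chronic MEKi against chronic libraries (1.45, SE 0.33, adjusted p = 0.0107). The rise was lost without chronic MEKi replicate 1 (adjusted p = 0.0509) or chronic MEKi replicate 2 (adjusted p = 0.0889). Chronic MEKi against acute libraries gave -0.10 (SE 0.33, adjusted p = 0.916), which turned to 0.017 on the deposited scale.

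Mxi1 (chromosome 19, 53310518 to 53373293, plus strand), the MXD-family repressor also called MXD2, fell in chronic libraries and stayed low under MEK inhibition. Gene-body signal was 5867, 6743 and 5654 in the acute, 3577, 2921 and 2575 in the chronic, and 3832, 3250.4 and 2824 in the chronic MEKi libraries. Chronic and chronic MEKi libraries overlapped, and all 6 were below the acute ones. The log2 fold change was -1.02 in chronic (SE 0.13, adjusted p = 6.44e-06) and -0.89 in chronic MEKi libraries (SE 0.13, adjusted p = 4.41e-05), each against acute. Between chronic MEKi and chronic libraries it was 0.13 (SE 0.13, adjusted p = 0.582). Among its annotated starts, rows from the most upstream one and from the group of starts 18895 to 19890 bases downstream gave gene-body log2 ratios of chronic to acute means from -1.01 to -1.20, leaving out a short row of 3101 bases at -0.69. The genes AC133451.2 and Gm10197 overlap Mxi1 on the opposite strand, and the use of strand is not stated.

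Mxd3 (chromosome 13, 55325168 to 55329758, minus strand), a repressor whose transcript is known from dividing cells in S phase, was higher in chronic and higher still in chronic MEKi libraries. Its gene-body signal was 163, 243 and 187 in the acute, 383, 254 and 352 in the chronic, and 506, 401 and 421 in the chronic MEKi libraries. None of the 3 groups overlapped, although chronic replicate 2 lay close to acute replicate 2. The log2 fold change was 1.16 in chronic MEKi against acute libraries (SE 0.24, adjusted p = 0.00143) and 0.72 in chronic against acute libraries (SE 0.24, adjusted p = 0.0266). The call in chronic libraries was lost without acute replicate 1 (0.59, adjusted p = 0.113), acute replicate 3 (0.69, 0.0699), chronic replicate 1 (0.61, 0.0964) or chronic replicate 3 (0.67, 0.0705), and with library totals (0.24, adjusted p = 0.446). Against chronic libraries the chronic MEKi value was 0.43 (SE 0.24, adjusted p = 0.255). Mxd3 overlaps the protein-coding gene Prelid1 on the opposite strand by 105 bases.

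Mxd4 (chromosome 5, 34173887 to 34187710, minus strand), the MXD-family repressor with the lowest signal per kb in acute and chronic MEKi libraries, was not called. Gene-body signal was 348, 273 and 211 in the acute, 264, 249 and 233 in the chronic, and 435, 411 and 252 in the chronic MEKi libraries. The 3 groups overlapped except that 2 of the 3 chronic MEKi libraries were above all others. The log2 fold change was -0.13 in chronic against acute (SE 0.26, adjusted p = 0.742) and 0.51 in chronic MEKi against chronic libraries (SE 0.26, adjusted p = 0.210). Its pause region did not pass the filter. Gm42846 overlaps Mxd4 on the opposite strand by 1001 bases.

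Mnt (chromosome 11, 74830920 to 74845725, plus strand), a broadly expressed repressor that limits MYC activity, was highest in chronic libraries. Its gene-body signal was 1718, 2547 and 1695 in the acute, 2777, 3025 and 2530.3 in the chronic, and 1782, 1573 and 1816 in the chronic MEKi libraries. Acute replicate 2 reached the chronic range, and the chronic MEKi libraries overlapped the other 2 acute ones. Mnt fell by 0.69 on the log2 scale in chronic MEKi against chronic libraries (SE 0.14, adjusted p = 0.00177). The rise in chronic against acute libraries was 0.50 (SE 0.14, adjusted p = 0.00924). That rise was lost without acute replicate 1 (0.41, adjusted p = 0.0564), acute replicate 3 (0.40, 0.0579) or chronic replicate 2 (0.44, 0.0506), and was 0.015 with library totals (adjusted p = 0.941). Chronic MEKi against acute libraries gave -0.18 (SE 0.14, adjusted p = 0.391).

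On the MLX side, Mlx (chromosome 11, 101087300 to 101092207, plus strand) held 326, 482 and 511 in the acute, 471, 608 and 610.4 in the chronic, and 367, 334 and 360.4 in the chronic MEKi libraries. The chronic MEKi libraries were below all chronic ones and overlapped the acute ones through acute replicate 1. Mlx fell by 0.65 on the log2 scale in chronic MEKi against chronic libraries (SE 0.21, adjusted p = 0.0370). That call did not outlast leaving out chronic replicate 2 (-0.60, adjusted p = 0.121), chronic replicate 3 (-0.59, 0.101), or chronic MEKi replicate 1 (-0.74, 0.0571), 2 (-0.62, 0.0987) or 3 (-0.67, 0.0840), nor library totals (-0.55, 0.100022). Chronic against acute libraries gave 0.37 (SE 0.21, adjusted p = 0.186), which turned to -0.11 with library totals. The end of Mlx overlaps Psmc3ip on the opposite strand by 385 bases.

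Mlxip (chromosome 5, 123394800 to 123457932, plus strand), which encodes MondoA, held 5345, 6293 and 5399.6 in the acute, 5293, 4849 and 4219.8 in the chronic, and 6145, 5366 and 5422 in the chronic MEKi libraries. The chronic libraries were lowest, with little space between them and the others. The log2 fold change was -0.25 in chronic against acute (SE 0.10, adjusted p = 0.0727) and 0.24 in chronic MEKi against chronic libraries (SE 0.10, adjusted p = 0.127). Without chronic replicate 1 the first was called (-0.32, adjusted p = 0.0327), as it was with library totals (-0.74, adjusted p = 0.000132). Gm42907, Gm42908 and Gm43813 on the same strand share 2148, 870 and 5378 bases with Mlxip, and Gm15747 on the opposite strand shares 3158. Txnip and Arrdc4, the arrestin-domain genes that MondoA and MLX are best known to activate, gave -0.23 (adjusted p = 0.139) and 0.74 (adjusted p = 0.146) in chronic against acute libraries. Under MEK inhibition they gave -0.16 (adjusted p = 0.409) and -0.92 (adjusted p = 0.108) against chronic libraries. Of the pair, Txnip alone was called once, lower in chronic MEKi than in acute libraries (-0.39, adjusted p = 0.0182).

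Mga (chromosome 2, 119897228 to 119969581, plus strand), the scaffold that brings MAX into PRC1.6, was lowest in chronic MEKi libraries. Its gene-body signal was 8279, 7588 and 8279.9 in the acute, 7221, 8153 and 7097 in the chronic, and 5780.2, 5865 and 5744 in the chronic MEKi libraries. The 3 chronic MEKi libraries were close together and below all others, while acute and chronic libraries overlapped. Mga fell by 0.37 on the log2 scale against chronic (SE 0.086, adjusted p = 0.00518) and by 0.47 against acute libraries (SE 0.086, adjusted p = 0.000428). With library totals the first was -0.26 (adjusted p = 0.207), and chronic against acute, at -0.11 (SE 0.086, adjusted p = 0.370), became -0.60 (adjusted p = 0.000545). Of 10 genes listed as PRC1.6 partners, 3 rose and none fell in chronic MEKi against chronic libraries, among them Rnf2, a ubiquitin ligase of Polycomb complexes (0.56, adjusted p = 0.00975), and E2f6 (0.35, adjusted p = 0.0442). In chronic against acute libraries 3 fell and none rose, led by Pcgf6 (-0.53, adjusted p = 0.00134) and Rnf2 (-0.49, adjusted p = 0.0114). In chronic MEKi against acute libraries 2 rose, Tfdp1 (0.33, adjusted p = 0.00903) and Cbx3 (0.31, adjusted p = 0.0242), and none fell. The list was not refitted at other scales, and library totals shift the median gene by -0.38 (log2) in this last comparison. The shares called were 30% in chronic against acute, 30% in chronic MEKi against chronic and 20% in chronic MEKi against acute libraries. In that order they stand beside the 33.9%, 17.6% and 25.8% of all genes, and the list's medians were -0.12, 0.21 and 0.076.

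Pause-region signal of 9 of the 10 genes passed the filter. In chronic against acute libraries 3 of the 9 were lower and 0 higher, where 10.7% of 7678 genes were called, 5.37% higher and 5.35% lower. The single call in chronic MEKi against chronic libraries was the rise of Mxd1, where 3% of genes were called, 1.56% higher and 1.43% lower. Likewise Myc gave the only call, a fall, in chronic MEKi against acute libraries, where 5.95% of genes were called, 3.44% higher and 2.51% lower. The groups did not overlap for 3, 4 and 3 of the 9 genes in these comparisons, against 24.3%, 20.2% and 24.7% of all genes. Pausing was measured in each library as log2(signal + 5) of the pause region minus that of the gene body. By limma, 0 of the 9 genes and 0 of 7413 genes were called for pausing in each comparison. At an unadjusted p under 0.05 there were 3 of the 9 in chronic against acute libraries (Mxd1, Myc and Mga), against 10.1% of all genes, and 1 in each of the others (Mxd1, then Mga), against 5.31% and 7.97%. The largest of these differences was 1.34 for Mxd1 in chronic against acute libraries (SE 0.34, adjusted p = 0.259). Mga also passed the pause-region filter only through chronic and chronic MEKi libraries. Its scaled pause-region signal was 14.1, 35.6 and 16.8 in the acute ones, so its differences from them carry no weight as a result on pausing.

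Levels of different genes were compared as mean scaled gene-body signal per kb of the annotated transcript span, since longer genes collect more signal. Region coordinates are not given, so the length over which signal was collected is not known. The order of genes, and the ratios and shares below, depend on this choice of length. Myc stood at 5556 ± 1185 per kb in acute, 5643 ± 735 in chronic and 3668 ± 346 in chronic MEKi libraries (SD, n = 3), and all other members lay between 11.7 and 253 per kb over the 9 libraries. In acute libraries Max followed Myc at 242 per kb, then Mnt at 134, Mxd1 at 122, Mga at 111, Mxi1 at 97.0 and, alike within their ranges, Mlxip at 90.0 and Mlx at 89.6. The ranges of Mnt and Mxd1, and of Mga, Mxi1 and Mlxip, overlapped from neighbour to neighbour, while Mxd3 at 43.0 and Mxd4 at 20.1 stood apart at the bottom.

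The order was different in chronic libraries. Mnt came next to Myc at 188 per kb, above Max at 129, Mlx at 115 and Mga at 104, whose ranges overlapped from neighbour to neighbour. Below them were Mlxip at 75.8, Mxd3 at 71.8 and Mxi1 at 48.2, again with overlapping neighbours. Mxd1, at 16.6 per kb, did not differ beyond its spread from Mxd4 at 18.0. In chronic MEKi libraries Max was again second at 177 per kb. Mnt at 116, Mxd3 at 96.5, Mxd1 at 95.2 and Mlxip at 89.4 followed with overlapping neighbours, and Mga at 80.1, Mlx at 72.1, Mxi1 at 52.6 and Mxd4 at 26.5 were separate from one another.

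A ratio of members within a library does not depend on how libraries are scaled to each other. The ratio of Myc to Mxd1, in signal per kb, was 36.6, 52.0 and 48.2 in the acute, 253, 485 and 341 in the chronic, and 39.9, 34.5 and 41.3 in the chronic MEKi libraries. The chronic libraries were all above the rest, and the other 2 groups overlapped. For Myc to Max the ratio was 17.4, 28.1 and 23.9 in the acute, 42.2, 40.5 and 49.0 in the chronic, and 19.4, 19.5 and 23.4 in the chronic MEKi libraries. For Myc to Mxd3 it was 124 to 136 in acute, 58.6 to 103 in chronic and 32.4 to 44.2 in chronic MEKi libraries, with no overlap between groups. Against the sum of the 5 repressor genes Mxd1, Mxd3, Mxd4, Mxi1 and Mnt, Myc stood at 11.3 to 14.7 in acute, 13.4 to 19.6 in chronic and 8.65 to 10.8 in chronic MEKi libraries, so that acute and chronic libraries overlapped and chronic MEKi libraries were below both.

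The make-up of the 5 repressor genes differed between groups by this measure. Mxd1 gave 30.8%, 27.0% and 30.5% of their summed signal per kb in the acute, 5.27%, 3.48% and 5.76% in the chronic, and 21.7%, 26.2% and 26.1% in the chronic MEKi libraries. Mnt gave 29.7%, 35.7% and 30.5% in the acute, 51.2%, 60.8% and 52.7% in the chronic, and 29.2%, 28.5% and 32.7% in the chronic MEKi libraries. The chronic libraries were set apart by a small share of Mxd1 and a large share of Mnt. Mxd3 gave 9.08% to 10.96% in acute, 16.5% to 23.7% in chronic and 23.4% to 26.7% in chronic MEKi libraries. Mxi1 gave 22.3% to 24.02% in acute, 12.7% to 15.6% in chronic and 12.0% to 14.8% in chronic MEKi libraries. The chronic MEKi libraries overlapped the acute ones in the share of Mnt and the chronic ones in the shares of Mxd3 and Mxi1, and their Mxd1 share lay a little under that of acute libraries. These shares are linked, since they add to a whole, and were not tested.

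**Figure D4:**
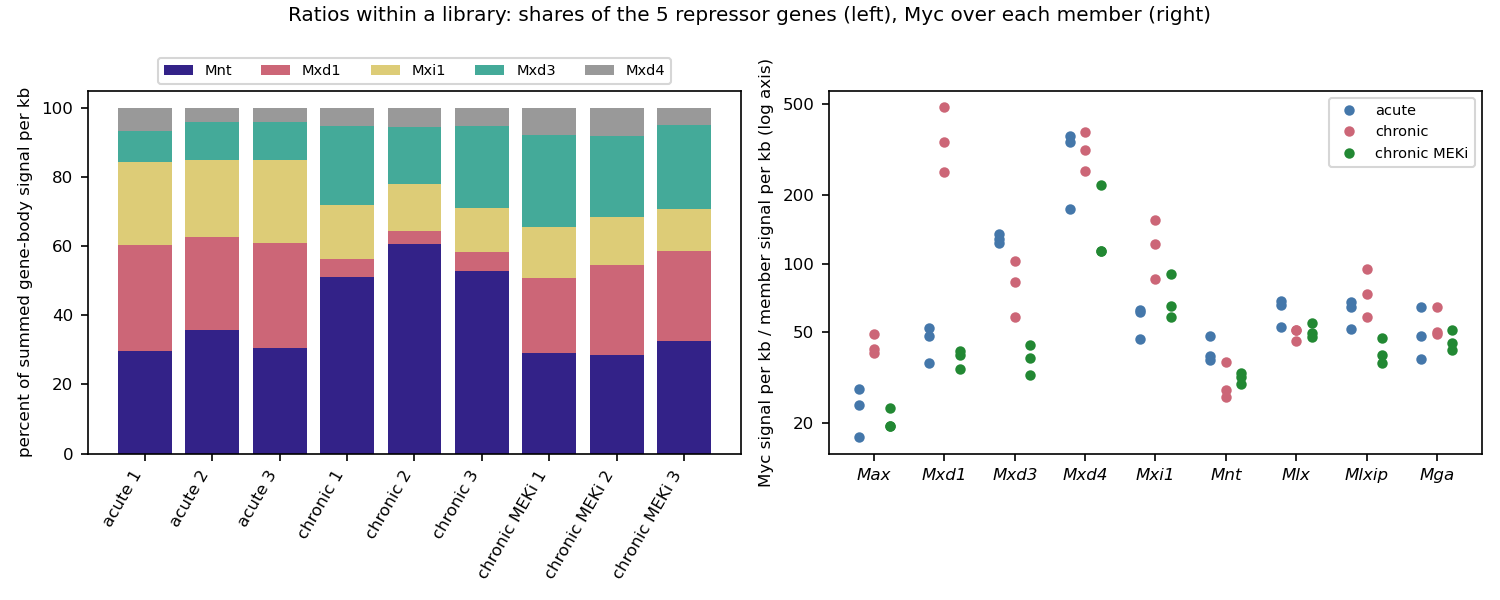
Left, share of each of the 5 repressor genes in their summed gene-body signal per kb (percent), 1 bar per library. Right, Myc signal per kb divided by that of each other member (log axis), 1 point per library; for Mxd1 the chronic libraries lie between 253 and 485 and all others between 34.5 and 52.0.

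The genes whose pattern was most like that of Myc were sought by Pearson's r of log2 scaled gene-body signal over the 9 libraries, among 10744 genes. The highest were Plk3, a polo-like kinase (r = 0.97), Cd52, a surface glycoprotein (0.97), Dusp7, a phosphatase that inactivates ERK (0.95), Psma3, a proteasome subunit (0.95), and Yrdc, an enzyme of transfer RNA modification (0.95). Among the members, Mlx came nearest, at rank 75 (r = 0.84), then Mga at rank 403 (0.71) and Mnt at rank 425 (0.70). Mxd4 was farthest, at rank 10480 (r = -0.77). These values describe 9 libraries in 3 groups, which share their group means, and carry no test.

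Of the relatives of the network outside the 10 genes, Mycn passed the filter and Mycl and Mlxipl did not. Mycn, the paralogue of Myc known from early development, held 171, 253 and 246 in the acute, 232, 444 and 334 in the chronic, and 140.2, 181 and 122 in the chronic MEKi libraries. It fell by 1.13 on the log2 scale in chronic MEKi against chronic libraries (SE 0.29, adjusted p = 0.0105), with no overlap of those groups, the direction of Myc at a far lower level.

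Genes that MYC is known to activate were counted from a list of 39, of which 38 were tested. Against chronic libraries, 15 of the 38 were lower in chronic MEKi libraries and 0 higher, a share of 39.5% where 17.6% of all genes were called and 7.65% were lower. The list's median log2 fold change there was -0.21, and that of all genes 0.037. Its largest falls were those of Hspd1, a mitochondrial chaperone (-0.77, adjusted p = 3.34e-05), and Tfap4, a transcription factor (-0.66, adjusted p = 8.24e-05). In chronic against acute libraries 9 were higher and 4 lower, a share of 34.2% beside 33.9% of all genes, with a median of 0.11. Slc1a5, a glutamine carrier, rose by 0.75 (adjusted p = 1.11e-05) and Hspd1 by 0.75 (adjusted p = 2.03e-05). Ccnd2, a D-type cyclin, fell by 0.56 (adjusted p = 2.21e-05) and Ddx21, a nucleolar helicase, fell by 0.37 (adjusted p = 0.00391).

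Chronic MEKi against acute libraries gave 2 higher, Hk2 (0.32) and Cad (0.26), and 11 lower of the 38, with a median of -0.17 and a share of 34.2% beside 25.8% of all genes (14.4% higher, 11.5% lower), led by Ddx21 (-0.59, adjusted p = 7.26e-05) and Ccnd2 (-0.55, adjusted p = 4.08e-05). The list's counts moved with the scale. Library totals gave 21 lower and 0 higher in chronic against acute, 6 lower and 0 higher in chronic MEKi against chronic, and 30 lower and 0 higher in chronic MEKi against acute libraries. These were 55.3%, 15.8% and 78.9% of the list, beside 49.8%, 15.7% and 37.1% of all genes tested at that scale. The shares of all genes count both directions, while every call of the list was lower. Of the 15942 genes, 1096 were higher and 6846 lower in chronic against acute libraries. In chronic MEKi against chronic libraries 1769 were higher and 741 lower, and in chronic MEKi against acute libraries 955 and 4965. With a signal of at least 200 required, the list's shares were 35.1%, 40.5% and 45.9% in the same order. They stand beside 43.6%, 23.9% and 35.7% of all genes tested with that filter. Without acute replicate 1, 8 of the 38 were called in chronic against acute libraries.

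**Figure D5:**
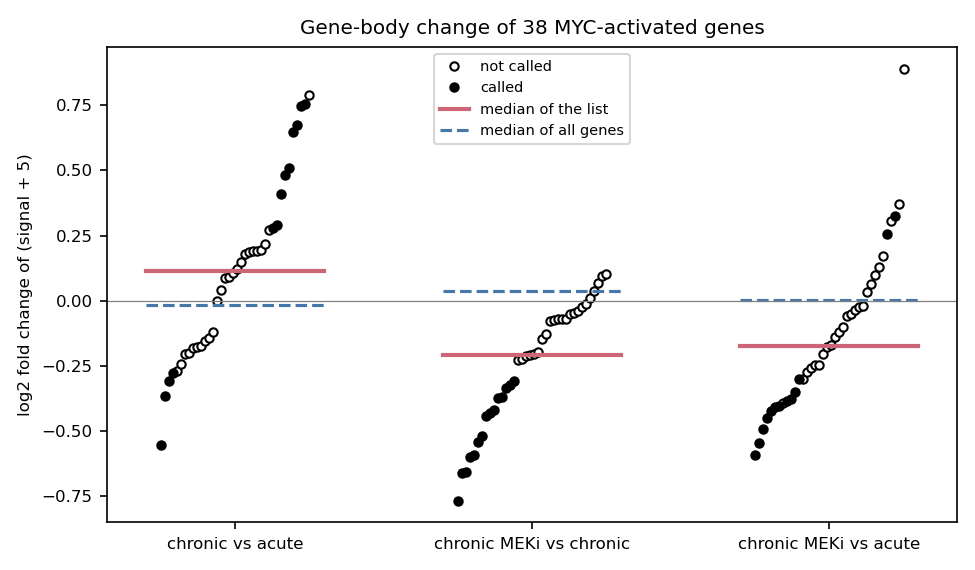
Log2 fold change of gene-body signal + 5 (vertical axis) of the 38 tested genes that MYC is known to activate, 1 point per gene in rising order within each comparison. Filled points were called by limma; lines are the medians of the list and of all genes, at -0.21 and 0.037 in the middle comparison, where all 15 called genes are lower.

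The corepressor that MXD proteins and MNT recruit was followed through 13 tested genes of a list of 14. Neither this list nor those for cofactors and stability of MYC below were refitted at other scales. In chronic against acute libraries 3 rose and 2 fell: Ing1 (0.83, adjusted p = 0.000268) and Ing2 (0.67, adjusted p = 0.0342), readers of a histone methyl mark, led the rises, and Suds3 (-0.47, adjusted p = 0.0108) and Arid4b (-0.29, adjusted p = 0.0258) fell. In chronic MEKi against chronic libraries 4 rose and 0 fell, among them Suds3 (0.51, adjusted p = 0.0119) and the deacetylase Hdac1 (0.49, adjusted p = 0.00104). Chronic MEKi against acute libraries gave 4 higher and 0 lower, led by Ing2 (0.94, adjusted p = 0.00564) and Ing1 (0.76, adjusted p = 0.000844). The list's shares called, 38.5%, 30.8% and 30.8%, stand beside 33.9%, 17.6% and 25.8% of all genes, and its medians were 0.14, 0.10 and 0.22.

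Among 11 genes for cofactors of MYC, 3 fell in chronic against acute libraries, with Ep400, a chromatin remodeller, at -0.53 (adjusted p = 5.66e-05) and Wdr5, which MYC binds, at -0.37 (adjusted p = 0.0119). Ep400 was also the single gene of this list called under MEK inhibition, at 0.27 against chronic (adjusted p = 0.0321) and -0.27 against acute libraries (adjusted p = 0.0227). The list's shares called were 27.3%, 9.09% and 9.09%, beside 33.9%, 17.6% and 25.8% of all genes, and its medians -0.074, 0.010 and -0.034. Among 13 tested genes that act on the stability of MYC protein, 4 rose and 4 fell in chronic against acute libraries, 61.5% of the list beside 33.9% of all genes. Skp2, a ubiquitin ligase subunit (1.25, adjusted p = 1.88e-07), and the kinase Aurka (0.68, adjusted p = 0.00109) rose. Pim1, a kinase that stabilises MYC (-0.58, adjusted p = 0.000370), and Usp28, a deubiquitinase (-0.55, adjusted p = 0.00535), fell.

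Pim1 and Usp28 were the only 2 of these 13 genes called in chronic MEKi against chronic libraries, at 0.83 (adjusted p = 1.82e-05) and 0.74 (adjusted p = 0.000998), 15.4% of the list beside 17.6% of all genes. In chronic MEKi against acute libraries 4 rose and 2 fell, 46.2% of the list beside 25.8% of all genes. Skp2 (1.20, adjusted p = 5.77e-07) and Cip2a (0.71, adjusted p = 0.000493), an inhibitor of a phosphatase that promotes the decay of MYC, were the largest rises. Usp36, a nucleolar deubiquitinase (-0.55, adjusted p = 0.000554), and Fbxw7, the ubiquitin ligase subunit that recognises phosphorylated MYC (-0.48, adjusted p = 0.000950), were the falls. The list's medians in the 3 comparisons were 0.068, 0.12 and 0.25.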

How the data were processed

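Nascent RNA-seq of 9 libraries was analysed from 2 tables of signal per transcript deposited by the authors, read from their names as gene body and pause region. The submitters' processing notes list FastQC 0.12.0, Trim Galore 0.6.10, STAR 2.7.0a, SAMtools 1.19.2, deepTools 0.1.9 and R 4.1.2 with build mm10; region coordinates, annotation and use of strand are not given in the sources used here. The deposited signal is not read counts: at least 99.99% of low values in each library are whole multiples, within 0.001, of a step of 0.764 to 1.06, so 1 scale factor had been applied, and in gene bodies 4 steps were more frequent than 1 or 3, so a step is not a read. Of 118482 rows per table, 117346 matched GENCODE M21 with version and 383 without; 753 were left out.

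Genes entered a test when their signal reached 50 in 3 or more libraries. From the log ratios of those genes a trimmed mean without weights (30% of ratios and 5% of mean levels cut from each end) gave 1 factor per library and table. Values were log2(signal + 5), which understates changes of weak genes. limma 3.58.1 (R 4.3.3) fitted 1 mean per group over the 9 libraries with trend and robust moderation, with Benjamini-Hochberg adjustment over all genes tested and a threshold of 0.05; it was tested on simulated data. Joins and promoter searches used Python 3.11.15 and pandas 2.3.3. Named are the 10 members, Dusp6, the 5 genes most like Myc, Txnip and Arrdc4, and per list up to 2 largest rises and 2 largest falls among called genes with mean signal of at least 100 and groups that do not overlap. The members and lists were chosen with earlier results of these data known. Other scalings, pseudocounts, filters, row choices, model settings, a replicate block and leaving out each library were tried. These refits cover the members, the MYC-activated list and the counts over all genes, and not the other gene lists.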

Additional observations from a re-analysis of the deposited data

How the results depend on the processing

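Of 855 refits of single members (all 10 in gene bodies, and Myc, Max and Mxd1 in pause regions) over 22 alternative settings, 774 kept direction and side of the threshold, 45 lost a call, 20 gained one and 16 changed sign. All 16 sign changes were of values not called in the main analysis, and 2 of them gave a call, both for Myc (adjusted p = 0.00646 with library totals and 0.00909 on the deposited scale). Myc in chronic against acute gene bodies was -0.45 with library totals, -0.44 on the deposited scale, -0.12 with totals free of ribosomal RNA-like rows, and it ran from -0.13 to 0.20 without 1 library, below 0 without acute replicate 1 or chronic replicate 3. Mlx there was -0.11 with library totals and -0.10 on the deposited scale, and Mxd4 ran from -0.31 to 0.043 without 1 library, above 0 without acute replicate 1. Mxi1 in chronic MEKi against chronic ran from -0.042 to 0.25 without 1 library, below 0 without chronic MEKi replicate 1. Mlxip in chronic MEKi against acute ran from -0.12 to 0.020 without 1 library, above 0 without acute replicate 2, chronic MEKi replicate 2 or 3. Pause-region Mxd1 in chronic MEKi against acute was 0.017 on the deposited scale and 0.011 with totals free of ribosomal RNA-like rows, and ran from -0.23 to 0.068 without 1 library, above 0 without acute replicate 2 or chronic MEKi replicate 3.

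Members called in gene bodies, 5, 6 and 5 in chronic against acute, chronic MEKi against chronic and chronic MEKi against acute, became 3 without the filter in the first, and 9 with library totals and 8 on the deposited scale in the third. Leaving out 1 library gave 3 to 5, 4 to 6 and 5 to 6. Pause-region counts of 3, 1 and 1 became 1 in the first with totals free of ribosomal RNA-like rows or without trend and robust moderation, 0 without the filter or with a signal of at least 200 and 2 with rows averaged in the second, and 2 with library totals in the third. Leaving out 1 library gave 1 to 3, 0 to 1 and 1. The MYC-activated counts of 13, 15 and 13 became 21, 6 and 30 with library totals, and 21, 6 and 28 on the deposited scale. They became 7 without the filter and 8 with the trimmed mean over every gene in the first, 9 without trend and robust moderation in the second and 20 with totals free of ribosomal RNA-like rows in the third, and 8 to 16, 11 to 17 and 11 to 18 without 1 library. The cause was not tested.

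Deviations of same-numbered libraries correlated at -0.533 to 0.0979 over 9 pairs, and 2 of 9 libraries correlated best with their own number, so the numbers were not taken to pair libraries. With a replicate block the counts were 5, 6 and 5 in gene bodies, 3, 1 and 1 in pause regions, 0 for pausing, and 14, 15 and 17 for the MYC-activated list.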
